A study of Mus musculus with 23 samples.

Results

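The axoneme, cilia and intraflagellar transport families are 90 genes of the 27466 in the count table of mouse testes and testis explants, of which 27373 have a symbol. They were defined by symbol, as the genes whose name starts with Cfap, Dnah, Dnaaf, Dnai, Dnal, Drc, Rsph or Tekt, or with Ift and a digit, without pseudogenes. These genes were chosen with earlier results of these data known. By role they comprise 34 cilia and flagella associated proteins (CFAP), 15 axonemal dynein heavy chains, 5 dynein intermediate or light chains, 7 dynein assembly factors, 7 radial spoke proteins, 3 subunits of the nexin-dynein regulatory complex, 5 tektins and 14 subunits of the intraflagellar transport (IFT) trains. All 90 passed the filter on low counts, which was set on all libraries together.

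An axoneme is the microtubule core of motile cilia and of the sperm tail, a ring of doublet microtubules around a central pair. Dynein arms, built from heavy, intermediate and light chains that assembly factors fold in the cytoplasm, slide the doublets against each other, radial spokes carry signals from the central pair to the arms, the nexin-dynein regulatory complex links neighbouring doublets, and tektins form filaments inside the doublet wall. IFT trains carry building blocks along the axoneme, and IFT subunits also serve the immotile primary cilia of somatic cells. In the testis the axoneme of the sperm tail grows out in spermatids, while many of its genes are already transcribed in spermatocytes.

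Testes of wild-type CD-1 mice, a strain labelled without any further allele, were sequenced at 6.5 days postpartum (dpp) and, on the way to the first sperm, at 10.5, at 22.5 and lastly at 36.5 dpp, during the first wave of spermatogenesis. Explants of 6.5 dpp testes were cultured at the gas-liquid interphase in α-MEM with 10% KnockOut serum replacement, gentamicin and retinol for 4, 16 or 30 days (D4, D16 and D30), and match in age the testes at 10.5 dpp, at 22.5 dpp and at 36.5 dpp. Explants were fresh or, in a single library at D30, from controlled slow frozen (CSF) testes, and the 6.5 dpp testes were fresh or CSF too. For each culture replicate 12 explants were pooled, without their necrotic centre, so that a culture library describes the outer tissue of several explants. The comparisons used 3 libraries each for 10.5 dpp, 22.5 dpp and D4 and 2 each for 36.5 dpp and D16. The age of 6.5 dpp had 4, 1 of them fresh and 3 CSF, and D30 had 4, of which 1 was CSF. The series' design text counts 2 CSF samples at 6.5 dpp where the labels name 3, and all 3 were used. Each library held 28351546 to 69029328 counts on genes. Values of libraries are listed in the order of their replicate numbers, fresh before CSF. Levels are counts per 1000000 counts on genes (CPM), and levels of different genes are compared only per kilobase of exon (CPM per kb).

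The library labelled 6.5 dpp fresh replicate 1 was left out of every comparison. Its summed level of the 90 genes was 11537 CPM, against 1206 to 1384 CPM in the other libraries at 6.5 dpp, and over all genes its Spearman correlation was 0.9853 with D16 replicate 1 and 0.9282 with 6.5 dpp fresh replicate 2. Fresh replicates 2 and 3 of that age had identical counts and entered as 1 library. At 6.5 dpp CSF replicate 3, genes with at least 8000 exon bases were lower relative to genes with at most 2000 bases than in the mean of the group (a difference of medians of -1.43 on the log2 scale, against 0.311 to 0.665 in the others), which touches the long heavy chain genes. Germ cell markers followed the labelled ages from 10.5 to 36.5 dpp. All 6 spermatocyte markers (Sycp1, Sycp3, Spo11, Piwil1, Hspa2 and Ldhc) were higher in every library at 22.5 dpp than in any at 10.5 dpp. All 6 elongated spermatid markers (Prm1, Prm2, Tnp1, Tnp2, Odf1 and Akap4) were higher in every library at 36.5 dpp than in any at 22.5 dpp. This order does not check the labels at 6.5 dpp or those of the cultures. Of the 8 markers of multiciliated epithelium, which also builds motile cilia, Mcidas, Sntn and Scgb1a1 reached at most 0.276 CPM in any library of the comparisons. The list summed to 33.4 to 72.9 CPM at 22.5 dpp and 194 to 362 CPM at 36.5 dpp, most of it from Deup1, a gene of centriole amplification, at 189 and 358 CPM at 36.5 dpp, and its part in the members' levels was not tested.

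The members were low in the prepubertal testis, rose between 10.5 and 22.5 dpp, and rose less far in culture. Together they made up 0.121 to 0.138% of all counts at 6.5 dpp and 0.1196 to 0.125% at 10.5 dpp. At 22.5 dpp their share was 1.47 to 2.10%, and at 36.5 dpp it was 1.41 to 1.92%. In the explants the share was 0.1197 to 0.125% after 4 days, 0.544 to 0.879% after 16 and 0.476 to 1.03% after 30. The summed level at D16 was 38.1% of that at 22.5 dpp, and the level at D30 was 46.3% of that at 36.5 dpp. These shares are of CPM, without the scaling factors of the tests below. With those factors the median log2 difference over the members was -1.42 at D16 and -1.76 at D30. Of the 90 members, 48 had their highest group mean at 36.5 dpp, 39 at 22.5 dpp, 2 at D30 and 1 at D16. In bulk tissue, fewer cells of a type and less RNA per cell cannot be told apart, and these levels are relative to all other transcripts of the tissue.

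**Figure D1:**
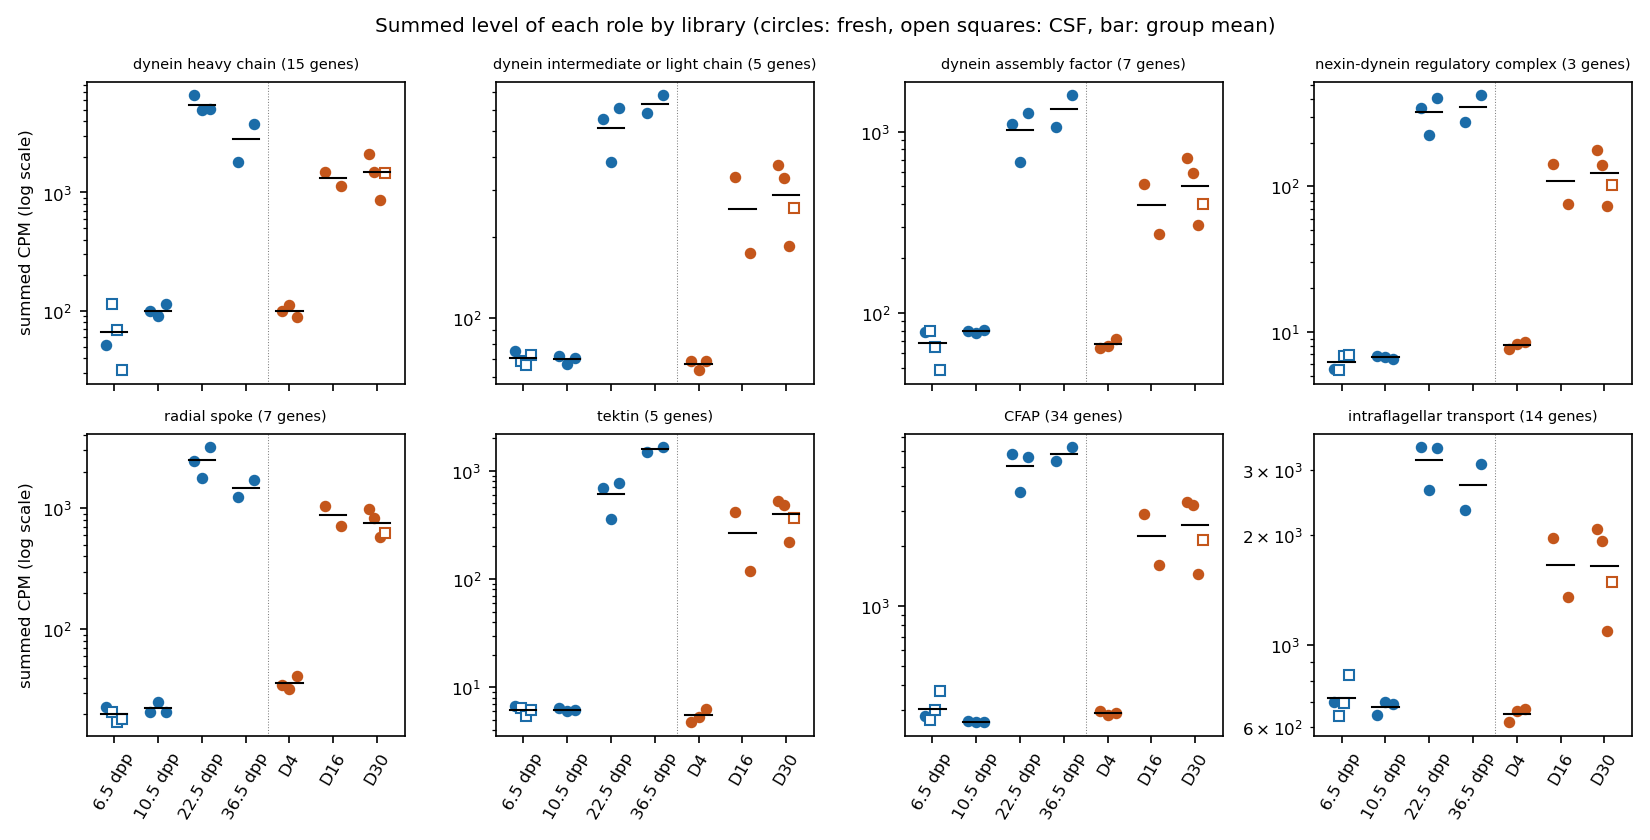
Summed level of each role in every library (vertical axes, CPM on log scales) by age and culture day (horizontal axis), with fresh libraries as circles, CSF libraries as open squares and group means as bars. All 8 roles stood higher at 22.5 dpp than at 10.5 dpp, and the libraries at D16 and D30 lay below the matched testes in most panels, with D16 replicate 2 and D30 fresh replicate 3 the lowest of their groups in the sum of all members.

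Before meiosis, IFT subunits led the members per length. At 6.5 dpp the highest level among the members per length was that of Ift20, an IFT-B subunit that also sits at the Golgi, with 62.0 CPM per kb, followed by Ift74 with 29.9 and Ift52 with 24.7 CPM per kb. The value of Ift20 was raised by 6.5 dpp CSF replicate 3 (208.7 CPM), and without that library it was 37.1 CPM per kb. The same 3 genes led at 10.5 dpp and D4, where Ift20 stood at 38.2 and 37.4 CPM per kb. The axonemal genes Rsph6a, Tekt4 and Dnah17 stood at 0.0832, 0.0757 and 0.112 CPM per kb at 6.5 dpp. The assembly factor Dnaaf6 had at most 3 counts in each library at 6.5 and 10.5 dpp, so no fold change of it against these ages is given, and Cfap97d1 and Cfap97d2 had at most 3 counts in each D4 library.

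From 6.5 to 10.5 dpp, when the first germ cells enter meiosis, none of the 90 members changed by the rule used throughout, at least a 2-fold change with a Benjamini-Hochberg adjusted p under 0.05 in edgeR's quasi-likelihood test. Of all 19255 genes tested, 0.904% were called. The testes at 10.5 dpp were all fresh, while most libraries at 6.5 dpp were CSF, so that age and freezing are mixed here. DESeq2 called none either, and without adjustment 7 members had a p under 0.05 in edgeR. The smallest p was that of Dnaaf2, a factor that prepares dyneins in the cytoplasm (log2 -1.02 ± 0.34, edgeR adjusted p = 0.185). Libraries at 10.5 dpp lay apart from those at 6.5 dpp for 14 members, 11 of them higher, and overlapped for 76. Such counts are given here and below for the members alone, without the share of all genes, so they are not set against a background.

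From 10.5 to 22.5 dpp, the step at which pachytene spermatocytes fill the tubules, 83 of the 90 members rose and none fell. Of all genes tested, 27.9% rose and 18.4% fell. The median log2 change was 5.01 over the members and 0.06 over all genes, and 71 members passed the stricter limits of a log2 change of 2 and an adjusted p of at most 0.001, as did 15.1% of all genes. In 86 members every library at 22.5 dpp was above every library at 10.5 dpp, a count given without the share of all genes. The split of all genes called depended on the scaling, with 60.24% of them higher by TMM factors, 62.92% by DESeq2's size factors and 48.11% by library size alone, while 84 and 81 members rose under these alternatives. The rise came with that of the 6 spermatocyte markers (5251 to 7514 CPM in sum at 22.5 dpp, 216 to 262 CPM at 10.5 dpp) and of the 6 round spermatid markers (128 to 308 CPM against 3.03 to 3.86 CPM), whose part in it was not tested.

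Among the dynein heavy chains, the motors themselves, 14 of 15 rose from 10.5 to 22.5 dpp, with a median log2 change of 5.64. Dnah8, a heavy chain of the outer arm of the sperm tail, stood at 38.1, 32.9 and 44.8 CPM at 10.5 dpp and at 3856, 3165 and 2793 CPM at 22.5 dpp (log2 6.71 ± 0.71, edgeR adjusted p = 3.81e-07). Dnah17, the other outer arm heavy chain of sperm, went from 2.25, 2.00 and 2.69 CPM to 781, 487 and 693 CPM (log2 8.45 ± 0.52, edgeR adjusted p = 8.95e-10). In both genes each library at 22.5 dpp lay far above those at 10.5 dpp. Dnah7c, an inner arm heavy chain, went from 0.674, 0.389 and 0.400 CPM to 158, 98.4 and 107 CPM (log2 8.26 ± 0.45, edgeR adjusted p = 3.41e-10), although Dnah7a, Dnah7b and Dnah7c share 18.63 to 37.47% of their 50-base windows, so that their counts are uncertain one by one. All 9 inner arm heavy chains rose, with log2 changes from 4.11 to 8.62. Dnah11, an outer arm heavy chain of motile cilia, was the heavy chain that was not called (log2 0.72 ± 0.37, edgeR adjusted p = 0.0936), and its libraries at 10.5 dpp (1.12, 1.06 and 1.27 CPM) overlapped those at 22.5 dpp (1.66, 1.73 and 1.26 CPM).

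The outer arm heavy chains of sperm and of other motile cilia differed in level by orders of magnitude at 22.5 dpp. Per length, Dnah8 stood at 122 CPM per kb and its paralog Dnah5, known from the outer arms of airway cilia, at 0.0704 CPM per kb. Dnah17 stood at 40.5 CPM per kb, and its paralogs Dnah9 and Dnah11, also known from airway cilia, at 0.228 and 0.107 CPM per kb. The same held at the head of the radial spoke, where Rsph6a, known from sperm, stood at 107.0 CPM per kb and its paralog Rsph4a, known from cilia, at 0.193 CPM per kb. At 36.5 dpp the values were 46.7 CPM per kb for Dnah8 and 0.226 for Dnah5, 28.3 for Dnah17 and 0.735 for Dnah9, and 128 for Rsph6a and 0.156 for Rsph4a. Dnah5 in CPM was 0.471, 0.167 and 0.618 at 10.5 dpp, 0.607, 2.13 and 0.569 at 22.5 dpp and 2.76 and 4.32 at 36.5 dpp, so that its libraries at 10.5 and 22.5 dpp overlapped although it was called higher at 22.5 dpp (log2 1.62 ± 0.67, edgeR adjusted p = 0.0443). That call was lost with library size alone and when any of 8 single libraries was left out, 22.5 dpp replicate 2 and 10.5 dpp replicates 1 and 2 among them.

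**Figure D2:**
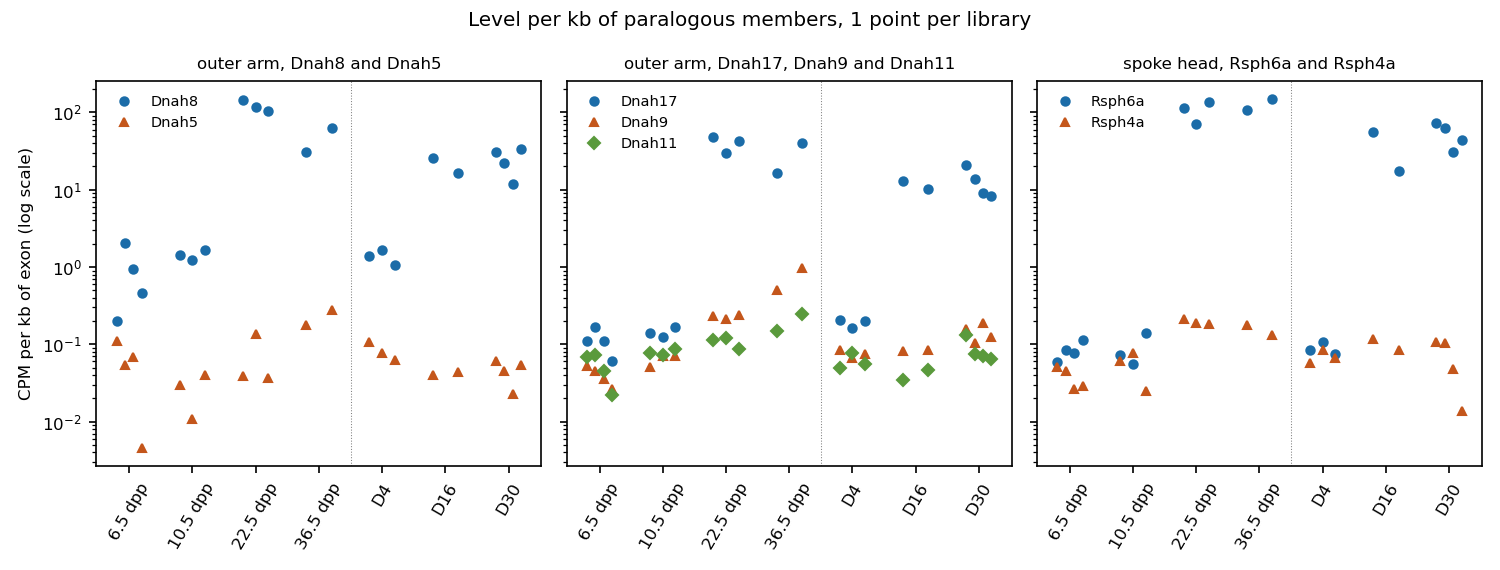
Level per kilobase of exon (vertical axis, CPM per kb on a log scale, values under 0.001 drawn at 0.001) of outer arm heavy chains and spoke head proteins in every library, by age and culture day (horizontal axis). At 22.5 dpp Dnah8 (mean 122), Dnah17 (40.5) and Rsph6a (107.0) stood above Dnah5 (0.0704), Dnah9 (0.228), Dnah11 (0.107) and Rsph4a (0.193), and the same order held at D16 and D30.

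Radial spokes, tektins and the nexin-dynein regulatory complex rose in full from 10.5 to 22.5 dpp, with 7 of 7, 5 of 5 and 3 of 3 members called. Among the spoke genes, Rsph3a and Rsph3b share 54.37 and 54.26% of their 50-base windows, so that their counts are uncertain one by one. Rsph1, a spoke head protein, went from 11.02, 15.99 and 10.5 CPM to 2047, 1529 and 2687 CPM (log2 7.69 ± 0.39, edgeR adjusted p = 2.95e-10). Every library at 22.5 dpp was above 1500 CPM, and the gene had the highest level per length among the members at this age (1521 CPM per kb). Rsph1 overlaps the gene Ubash3a, and the strand setting of the counting is not stated in the sources used here. Tekt3 went from 0.180, 0.139 and 0.127 CPM to 144, 82.3 and 154 CPM (log2 10.03 ± 0.63, edgeR adjusted p = 9.45e-10), and the log2 changes of the 5 tektins ran from 4.59 (Tekt2) to 10.03 (Tekt3). Drc7, a subunit of the regulatory complex, went from 0.202, 0.195 and 0.127 CPM to 89.7, 55.4 and 108 CPM (log2 9.23 ± 0.58, edgeR adjusted p = 1.01e-09). In these genes 22.5 dpp replicate 2 was the lowest of its group, as in 75 of the 90 members.

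The CFAP genes, some of which encode parts of the central pair, the doublet wall or the spokes, rose in 33 of 34 cases. Their median log2 change was 6.21. Cfap65, needed for the normal form of the sperm tail, went from 0.763, 0.612 and 0.891 CPM to 599, 425 and 539.9 CPM (log2 9.72 ± 0.51, edgeR adjusted p = 2.95e-10). Cfap206 went from 0.853, 0.445 and 1.02 CPM to 643, 346 and 601 CPM (log2 9.72 ± 0.59, edgeR adjusted p = 7.54e-10). Neither gene had overlapping groups. Cfap20dc was the CFAP gene that was not called (log2 0.61 ± 0.22, edgeR adjusted p = 0.0231). Cfap77, a protein of the doublet wall, lay just past the threshold (log2 1.02 ± 0.36, edgeR adjusted p = 0.0201), with overlapping libraries (2.33, 2.20 and 2.60 CPM at 10.5 dpp, 4.09, 2.50 and 5.03 CPM at 22.5 dpp), and its call was lost with library size alone or without replicate 1 or 2 at 10.5 dpp or replicate 1 or 3 at 22.5 dpp.

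IFT subunits rose less than the axonemal genes from 10.5 to 22.5 dpp, with 12 of 14 called and a median log2 change of 2.04. Ift140, a subunit of the IFT-A complex, which returns cargo to the cell body, went from 89.3, 94.1 and 95.1 CPM to 1109, 728 and 1099 CPM (log2 3.71 ± 0.41, edgeR adjusted p = 5.51e-07). Each of its libraries at 22.5 dpp was well above those at 10.5 dpp. Ift20 (log2 0.97 ± 0.55, edgeR adjusted p = 0.136) and Ift52 (log2 0.90 ± 0.24, edgeR adjusted p = 0.00404), both of the IFT-B complex that carries cargo outward, were the 2 subunits not called. Ift52 nevertheless had every library at 22.5 dpp (102, 93.3 and 105 CPM) above those at 10.5 dpp (63.1, 70.2 and 65.8 CPM). The 3 IFT-A subunits had log2 changes of 1.62 to 3.71, and the 11 IFT-B subunits of 0.90 to 3.33.

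Of the 7 assembly factors, 5 rose from 10.5 to 22.5 dpp. Dnaaf1, which helps to load dynein arms, went from 8.22, 10.2 and 10.0 CPM to 918, 524 and 1080.4 CPM (log2 6.79 ± 0.50, edgeR adjusted p = 5.25e-09). Dnaaf6 stood at 0.0674, 0.0278 and 0.0364 CPM at 10.5 dpp, at the limit of detection, and at 28.4, 16.01 and 19.2 CPM at 22.5 dpp. Its paralog on the X chromosome, Dnaaf6b, stood at 1.08, 1.00 and 0.600 CPM and 0.766, 0.987 and 1.01 CPM (log2 0.34 ± 0.37, edgeR adjusted p = 0.432), with overlapping groups. Dnaaf5, a factor of the cytoplasm, was not called either (log2 0.78 ± 0.24, edgeR adjusted p = 0.00967). The sequences of the paralogs share 1.21% of the 50-base windows of Dnaaf6, so that few reads could belong to both. Of the intermediate and light chains, Dnaic1, Dnaic2, Dnal4 and Dnali1 rose, and Dnal1 (log2 0.95) stayed under the 2-fold limit.

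Promoter windows of RefSeq (GRCm38.p6), which run from 250 bases before to 50 bases after a transcript's first base, were found for 76 of the 90 members, with 83 windows in all. RFX factors are regulators of cilium genes that bind a short site (GTTGCC, called here the single RFX site) or a spaced inverted pair of such sites (GTTNCC, any 2 bases and GGNAAC). On either strand, the single site was found in the windows of 31 members (40.79%) and of 14.6% of all 18991 genes with a window. The spaced pair, which overlaps the single site, was found in 4 members (5.263%) and in 0.5476% of all genes. A MYB site (CAGTTG) was found in 22 members (28.95%) and 14.54% of all genes, the FOXJ1 site TGTTTAC in 4 (5.263%) and 3.496%, and the CRE (TGACGTCA) in 2 (2.632%) and 2.522%. These are matches of letters and not bound sites. Matches to the MYB site and to the single RFX site share bases in Cfap20dc, Cfap161, Dnah7a, Dnah7b and Dnaic2, so their shares are not independent. The members had 1.09 windows per gene and all genes 1.22. Of the 31 members with a single RFX site 28 rose from 10.5 to 22.5 dpp, with a median log2 change of 4.29, and of the 45 without it 41 rose, with a median of 5.6.

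The windows of the 4 members with a spaced pair are shown because they include Dnaaf6, which rose from the limit of detection, and its paralog Dnaaf6b, which did not rise, and those of Tekt1 and Tekt2, 2 of the 5 tektins that rose at both steps in vivo, because these hold 2 single sites each. Sequences run 5′ to 3′ on the strand of the gene, in lower case, with matches to the single RFX site and to the spaced pair in capitals. The windows are chr14:8666241-8666540 (minus strand) for Cfap20dc, chr16:90934800-90935099 (minus) for Cfap298, chr1:31222589-31222888 (plus) for Dnaaf6, chrX:140062629-140062928 (plus) for Dnaaf6b, chr11:72361833-72362132 (minus) for Tekt1 and chr4:126325597-126325896 (minus) for Tekt2, and each holds the promoter and the first 50 bases of the transcript.
Cfap20dc: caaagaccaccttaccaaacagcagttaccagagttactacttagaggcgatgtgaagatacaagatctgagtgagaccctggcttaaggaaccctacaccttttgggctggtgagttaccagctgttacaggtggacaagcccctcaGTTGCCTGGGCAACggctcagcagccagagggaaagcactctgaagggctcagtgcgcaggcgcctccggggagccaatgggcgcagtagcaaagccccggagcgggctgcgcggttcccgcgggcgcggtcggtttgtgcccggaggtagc
Cfap298: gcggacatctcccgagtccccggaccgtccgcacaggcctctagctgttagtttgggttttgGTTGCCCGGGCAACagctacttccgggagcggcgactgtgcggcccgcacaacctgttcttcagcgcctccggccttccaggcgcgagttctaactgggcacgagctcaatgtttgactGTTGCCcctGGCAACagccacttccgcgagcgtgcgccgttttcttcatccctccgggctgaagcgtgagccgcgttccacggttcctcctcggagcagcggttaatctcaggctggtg
Dnaaf6: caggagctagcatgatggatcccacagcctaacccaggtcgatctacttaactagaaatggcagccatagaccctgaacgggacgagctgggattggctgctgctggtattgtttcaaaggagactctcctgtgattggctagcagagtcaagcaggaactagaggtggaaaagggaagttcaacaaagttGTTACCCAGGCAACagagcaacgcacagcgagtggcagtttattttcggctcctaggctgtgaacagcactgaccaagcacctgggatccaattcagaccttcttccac
Dnaaf6b: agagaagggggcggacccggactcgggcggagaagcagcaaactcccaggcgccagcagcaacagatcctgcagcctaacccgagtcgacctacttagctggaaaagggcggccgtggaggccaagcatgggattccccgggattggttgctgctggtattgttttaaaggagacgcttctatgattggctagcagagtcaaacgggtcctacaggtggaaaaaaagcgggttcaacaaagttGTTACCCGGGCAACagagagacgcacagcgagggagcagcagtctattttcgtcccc
Tekt1: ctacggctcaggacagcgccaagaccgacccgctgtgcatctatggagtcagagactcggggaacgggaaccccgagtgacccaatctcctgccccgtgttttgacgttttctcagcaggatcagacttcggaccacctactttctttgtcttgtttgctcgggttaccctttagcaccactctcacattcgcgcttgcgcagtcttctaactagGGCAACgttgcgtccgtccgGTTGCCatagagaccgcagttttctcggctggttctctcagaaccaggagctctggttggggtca
Tekt2: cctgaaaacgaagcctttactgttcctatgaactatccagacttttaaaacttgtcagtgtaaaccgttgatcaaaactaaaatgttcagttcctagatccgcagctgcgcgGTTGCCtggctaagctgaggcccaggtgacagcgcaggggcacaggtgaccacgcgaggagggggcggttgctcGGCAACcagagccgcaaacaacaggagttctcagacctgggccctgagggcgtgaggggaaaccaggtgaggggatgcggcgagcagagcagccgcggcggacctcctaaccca

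Counted from the first base of the transcript as 0, the spaced pair starts at position -102 in Cfap20dc, -188 in Cfap298, -59 in Dnaaf6 and -7 in Dnaaf6b. Cfap298, which works with the assembly factors, was called higher at 22.5 dpp than at 10.5 dpp (log2 3.03) and lower at D30 than at 36.5 dpp (log2 -1.81). Cfap20dc and Dnaaf6b, whose windows hold the pair too, were called in neither. Of these 4 genes with the spaced pair, 2 were called higher at 22.5 dpp, Cfap298 and Dnaaf6.

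**Figure D3:**
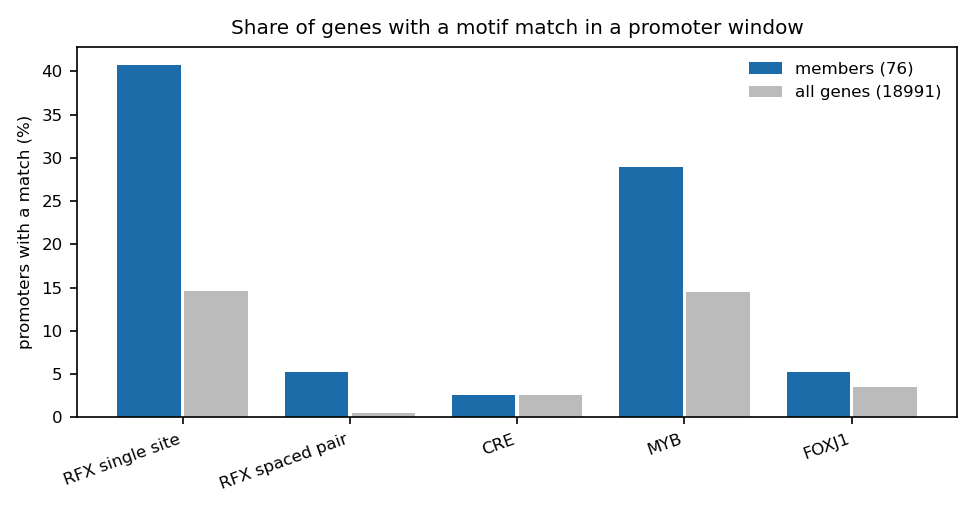
Share of genes (vertical axis, %) with a match to each of 5 motifs (horizontal axis) in a promoter window, for the 76 members with a window (blue bars) and for all 18991 genes with a window (grey bars). The single RFX site was found in 40.79% of members and 14.6% of all genes, and the CRE in 2.632% and 2.522%.

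From 22.5 to 36.5 dpp, when round and elongated spermatids accumulate, the members parted: 21 rose, none fell, and 69 were not called. Of all genes tested, 20.5% rose and 17.2% fell, so that the 23.3% of members that rose were close to the share of all genes. The median log2 change was 0.62 over the members and -0.13 over all genes. Scaling mattered at this step. With DESeq2's size factors 32 members rose, and the median of all genes was 0.07. With library size alone 14 rose and 4 fell, and the median of all genes was -0.64. The higher share of all genes called was 54.4%, 67.26% and 30.2% under the 3 scalings. The 2 libraries at 36.5 dpp differed by 1.01 on the log2 scale in the medians of long against short genes, replicate 1 having the lower long genes, and replicate 1 was the lower for 69 of the 90 members. Leaving out single libraries gave 14 to 25 members, the lowest count without 36.5 dpp replicate 2.

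All 5 tektins rose from 22.5 to 36.5 dpp. Tekt5, specific to sperm, stood at 37.7, 18.3 and 39.1 CPM at 22.5 dpp and at 147 and 147 CPM at 36.5 dpp (log2 2.69 ± 0.43, edgeR adjusted p = 9.64e-05). Tekt4 stood at 143, 63.6 and 173 CPM and then at 379.7 and 456 CPM (log2 2.21 ± 0.57, edgeR adjusted p = 0.00399). Tekt2 stood at 108, 47.4 and 117 CPM and then at 352 and 337 CPM (log2 2.40 ± 0.50, edgeR adjusted p = 7.81e-04). In these tektins the groups did not overlap, and 36.5 dpp was the higher. Tekt1 was the least changed (log2 1.12 ± 0.41, edgeR adjusted p = 0.0305) and lost its call with library size alone and without 22.5 dpp replicate 2 or 36.5 dpp replicate 2.

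The other 16 members called at this step came from every role but IFT and the regulatory complex, with 8 CFAP genes, 4 heavy chains, 2 spoke proteins, 1 assembly factor and 1 light chain. Cfap97d1, a gene related to the ciliary protein Cfap97, stood at 3.33, 0.592 and 4.20 CPM at 22.5 dpp and at 105 and 64.9 CPM at 36.5 dpp (log2 5.44 ± 0.98, edgeR adjusted p = 2.58e-04), the steepest rise among the members. Cfap77 went from 4.09, 2.50 and 5.03 CPM to 14.0 and 21.9 CPM (log2 2.71 ± 0.39, edgeR adjusted p = 3.55e-05). Dnah3, an inner arm heavy chain, went from 27.4, 7.48 and 22.4 CPM to 72.5 and 182 CPM (log2 3.22 ± 0.77, edgeR adjusted p = 0.00235). These groups did not overlap. Dnah9 rose as well (log2 2.20 ± 0.31, edgeR adjusted p = 2.39e-05), from 3.67, 3.4 and 3.82 CPM to 8.05 and 15.4 CPM, as did the spoke proteins Rsph14 (log2 2.04 ± 0.48, edgeR adjusted p = 0.00205) and Rsph9 (log2 1.01 ± 0.36, edgeR adjusted p = 0.0259) and the assembly factor Dnaaf3 (log2 1.24 ± 0.33, edgeR adjusted p = 0.00477). The summed level of the elongated spermatid markers moved with them, from 26.2 to 168 CPM at 22.5 dpp to 19905 to 25691 CPM at 36.5 dpp, and its part was not tested.

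**Figure D4:**
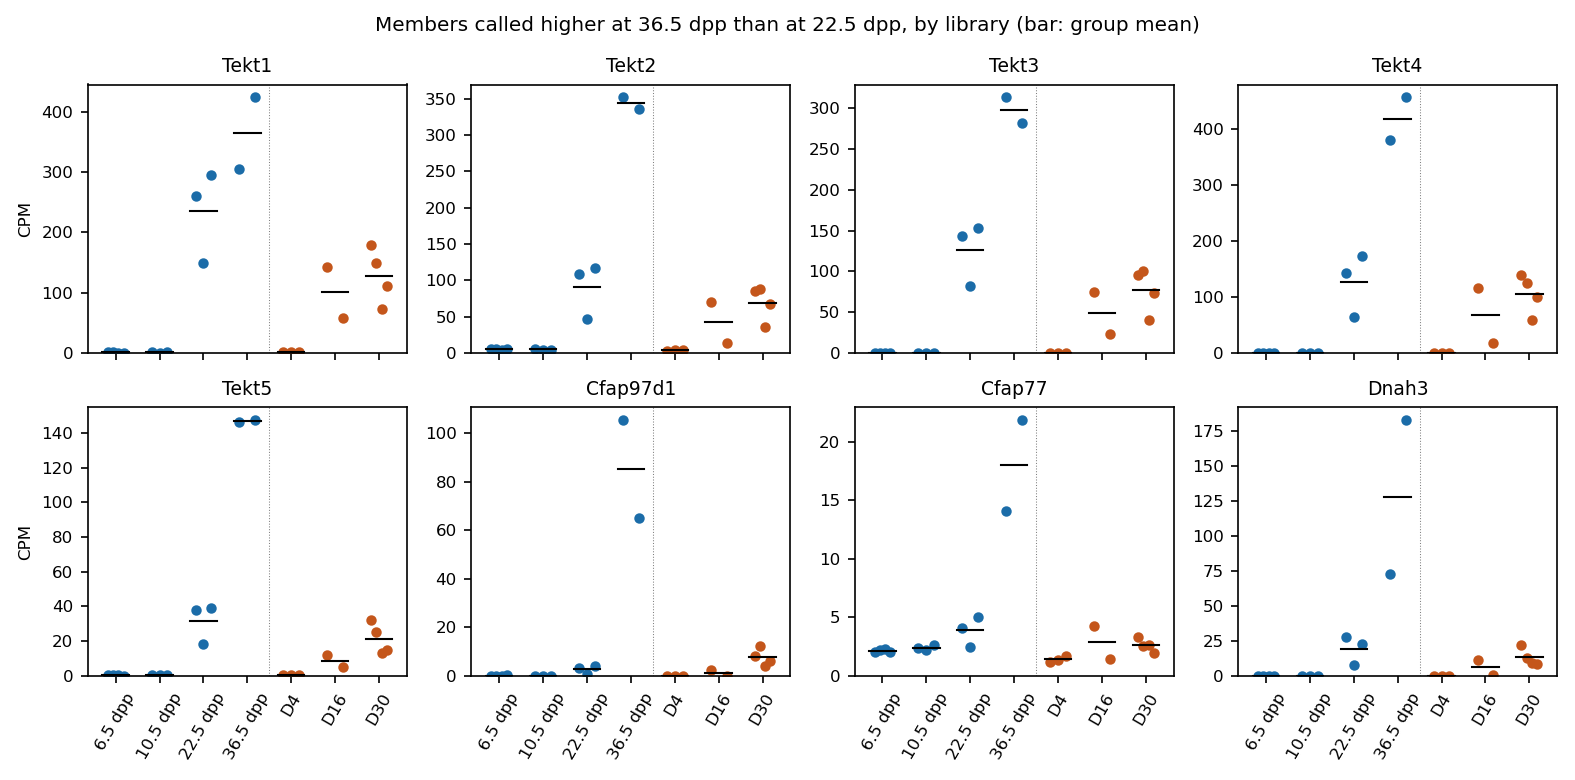
Level of 8 members called higher at 36.5 dpp than at 22.5 dpp (vertical axes, CPM on linear scales from 0) in every library, by age and culture day (horizontal axis), with in vivo libraries in blue, culture libraries in orange and group means as bars. For Tekt5 the libraries at 36.5 dpp stood at 147 and 147 CPM and those at D30 between 13.1 and 32.1 CPM, and in each of the 8 genes the D30 libraries lay below both libraries at 36.5 dpp.

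Among the heavy chains, the outer arm chains Dnah5, Dnah9 and Dnah11 rose at this step, as did Dnah3 among the 9 inner arm chains, and the other 11 heavy chains were not called. Dnah8 stood at 820.1 and 1684 CPM at 36.5 dpp, below each library at 22.5 dpp, and was not called (log2 -0.88 ± 0.63, edgeR adjusted p = 0.259). Rsph1 stood at 783 and 1174 CPM, also below each library at 22.5 dpp (log2 -0.60 ± 0.33, edgeR adjusted p = 0.143). In 21 members every library at 36.5 dpp was below every library at 22.5 dpp by CPM, and in 27 it was above, while 42 overlapped. None of the 21 was called lower. In groups this small some genes lie apart by chance, and no share of all genes stands beside these counts. The summed level of the heavy chains at 36.5 dpp was 0.507 times that at 22.5 dpp. As group means, Dnah8 gave 3271 of their 5523 CPM at 22.5 dpp and 1252 of 2800 CPM at 36.5 dpp. The summed level of the tektins was 2.57 times and that of the IFT subunits 0.856 times the level at 22.5 dpp. None of the 14 IFT subunits was called.

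After 4 days of culture, 10 members were higher than in testes of 6.5 dpp, the age at which culture began, and 1 was lower. The D4 explants were fresh, while all but 1 of the libraries at 6.5 dpp were CSF. Culture and freezing are therefore mixed in this comparison. Of all genes tested, 6.87% were higher and 5.82% lower, and of the members 11.1% and 1.11%. Cfap54, a protein of the central pair, stood at 1.59, 1.06, 1.65 and 0.847 CPM at 6.5 dpp and at 9.84, 9.71 and 8.33 CPM at D4 (log2 2.87 ± 0.29, edgeR adjusted p = 1.44e-06). Dnah7a stood at 0.188, 0.187, 0.122 and 0.0353 CPM and then at 1.14, 1.10 and 0.840 CPM (log2 2.86 ± 0.44, edgeR adjusted p = 1.64e-04). Cfap410, a protein of the ciliary base, stood at 13.9, 12.2, 11.9 and 13.1 CPM and then at 22.5, 25.4 and 30.1 CPM (log2 1.05 ± 0.16, edgeR adjusted p = 1.60e-04). None of these groups overlapped. The other members called higher were Rsph1, Dnah12, Dnaic1, Cfap47, Dnah7c, Cfap45 and Cfap65, with log2 changes of 1.11 to 2.07. Drc1, a subunit of the regulatory complex, was the member that fell, from 1.73, 1.29, 2.68 and 2.68 CPM to 0.464, 0.791 and 0.811 CPM (log2 -1.57 ± 0.41, edgeR adjusted p = 0.0114). Without D4 replicate 1 the call of Drc1 was lost, and 7 members were called. With fresh libraries alone, which leaves 1 library at 6.5 dpp, 2 members were called, and Cfap410 was not called by DESeq2 or with its size factors. With the library labelled 6.5 dpp fresh replicate 1 in the fit 2 members were called, both lower, and Cfap54, Dnah7a, Rsph1, Dnah12, Dnaic1, Dnah7c and Cfap65 took the opposite sign. Spermatocyte markers summed to 331 to 387 CPM at D4 and 153 to 195 CPM at 6.5 dpp, with 4 of 6 higher in every D4 library, and the 4 macrophage markers to 27.1 to 29.9 and 50.9 to 78.9 CPM, with all 4 lower. Their part was not tested.

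Against testes of the same age, 10.5 dpp, 5 members were higher at D4 and none was lower. Of all genes, 3.45% were higher and 2.43% lower. Cfap54, at 2.47, 1.84 and 2.46 CPM at 10.5 dpp, differed most clearly (log2 2.13 ± 0.30, edgeR adjusted p = 1.64e-04). Dnah12, an inner arm heavy chain, stood at 0.135, 0.222 and 0.145 CPM at 10.5 dpp and at 0.627, 0.647 and 0.608 CPM at D4 (log2 2.00 ± 0.47, edgeR adjusted p = 0.0123). Rsph1 stood at 11.02, 15.99 and 10.5 CPM at 10.5 dpp and at 24.7, 23.5 and 31.2 CPM at D4 (log2 1.17 ± 0.30, edgeR adjusted p = 0.0200). In these genes each D4 library was the higher. Dnah7a (log2 1.65 ± 0.43, edgeR adjusted p = 0.0225) and Cfap69 (log2 1.29 ± 0.37, edgeR adjusted p = 0.0388) were also called. The count was unstable, with 1 member called without 10.5 dpp replicate 1 or without replicate 3, 2 without D4 replicate 1, and 3 without D4 replicate 2 or 3. The 6 spermatocyte markers, whose part was not tested, summed to 331 to 387 CPM at D4 and 216 to 262 CPM at 10.5 dpp, and 5 of the 6 were higher in every D4 library.

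From D4 to D16 in culture, 72 members rose and none fell. Of all genes tested, 16.6% rose and 3.21% fell. The median log2 change was 3.5 over the members and 0.03 over all genes, and 58 members passed the stricter limits, as did 7.61% of all genes. By role the rise took in 29 of 34 CFAP genes, 12 of 15 heavy chains, 4 of 5 intermediate and light chains, 5 of 7 assembly factors, 3 of 3 subunits of the regulatory complex, 6 of 7 spoke proteins, 5 of 5 tektins and 8 of 14 IFT subunits. Tekt3 stood at 0.0697, 0.0719 and 0.0724 CPM at D4 and at 74.2 and 23.0 CPM at D16 (log2 9.41 ± 0.65, edgeR adjusted p = 1.03e-08). Rsph6a stood at 0.209, 0.264 and 0.188 CPM and then at 138 and 43.1 CPM (log2 8.75 ± 0.60, edgeR adjusted p = 9.00e-09). Cfap65 stood at 1.42, 1.32 and 1.36 CPM and then at 203 and 187 CPM (log2 7.20 ± 0.47, edgeR adjusted p = 6.44e-09). Each D16 library was far above the D4 libraries, but the 2 D16 libraries were themselves apart in Tekt3 and Rsph6a. Over all members D16 replicate 2 was the lower in 81 of 90, with a summed level of 5439 CPM against 8793 CPM in replicate 1, and its summed spermatocyte markers were the lower too (2130 and 4871 CPM). Leaving out single libraries gave 60 to 76 members.

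At D16 the members stood below the testis of 22.5 dpp: 51 were lower and none was higher. Of all genes, 8.24% were lower and 8.83% higher. The median log2 difference was -1.42 over the members and -0.08 over all genes. DESeq2's size factors gave 58 lower members and library size alone 47, while the higher share of all genes called was 51.72%, 41.44% and 67.35% by TMM, by these size factors and by library size. In 65 members both D16 libraries were below every library at 22.5 dpp by CPM, and in 1, Dnaaf6b, both were above. These counts are given without the share of all genes. The median stayed below 0 when a library of either group was left out, but the calls changed. Without D16 replicate 2 the median over the members was -0.91, 87 of 90 members were below 0 and 1 was called. Without D16 replicate 1 the median was -1.84, 88 were below 0 and 67 were called. These 2 fits leave 1 library at D16, which is assumed to vary like the other groups. Without 22.5 dpp replicate 1 or 3 the counts were 23 and 26 and the medians -1.27 and -1.29.

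Heavy chains were lower at D16 than at 22.5 dpp in 13 of 15 cases, with a median log2 difference of -1.76. Their summed level was 23.8% of that at 22.5 dpp, a share that leans on Dnah8. As group means, Dnah8 gave 3271 of the 5523 CPM of the heavy chains at 22.5 dpp and 563 of 1315 CPM at D16. Dnah8 stood at 681 and 445 CPM at D16, below each library at 22.5 dpp (log2 -2.70 ± 0.69, edgeR adjusted p = 0.0110). Dnah9 stood at 1.31 and 1.33 CPM at D16 and at 3.67, 3.4 and 3.82 CPM at 22.5 dpp (log2 -1.62 ± 0.33, edgeR adjusted p = 0.00265). Rsph1 stood at 847 and 632 CPM at D16 and at 2047, 1529 and 2687 CPM at 22.5 dpp (log2 -1.67 ± 0.35, edgeR adjusted p = 0.00299). In all 3 genes the groups were apart, although only Dnah9 kept its call without D16 replicate 2. Drc3, a subunit of the regulatory complex, stood at 48.9 and 30.7 CPM at D16 and at 109.8, 74.5 and 129.8 CPM at 22.5 dpp (log2 -1.57 ± 0.33, edgeR adjusted p = 0.00293), and all 3 measured subunits were called lower. IFT subunits were lower in 3 of 14 cases, Ift122, Ift140 and Ift172, and their summed level was 51.9% of that at 22.5 dpp. In the other roles 20 of 34 CFAP genes, 2 of 7 assembly factors, 3 of 5 intermediate and light chains, 4 of 7 spoke proteins and 3 of 5 tektins were lower. Among the markers, spermatocyte genes summed to 2130 to 4871 CPM at D16 and 5251 to 7514 CPM at 22.5 dpp, and 3 of the 6 were lower in both D16 libraries than in any at 22.5 dpp. Sertoli cell markers summed to 1012 to 1615 CPM at D16 and 342 to 602 CPM at 22.5 dpp (5 of 6 higher in both D16 libraries), peritubular and vessel markers to 1145 to 1344 and 541 to 803 CPM (3 of 5 higher), and Leydig cell markers to 213 to 238 and 835 to 933 CPM (5 of 5 lower). The part of these lists was not tested.

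**Figure D5:**
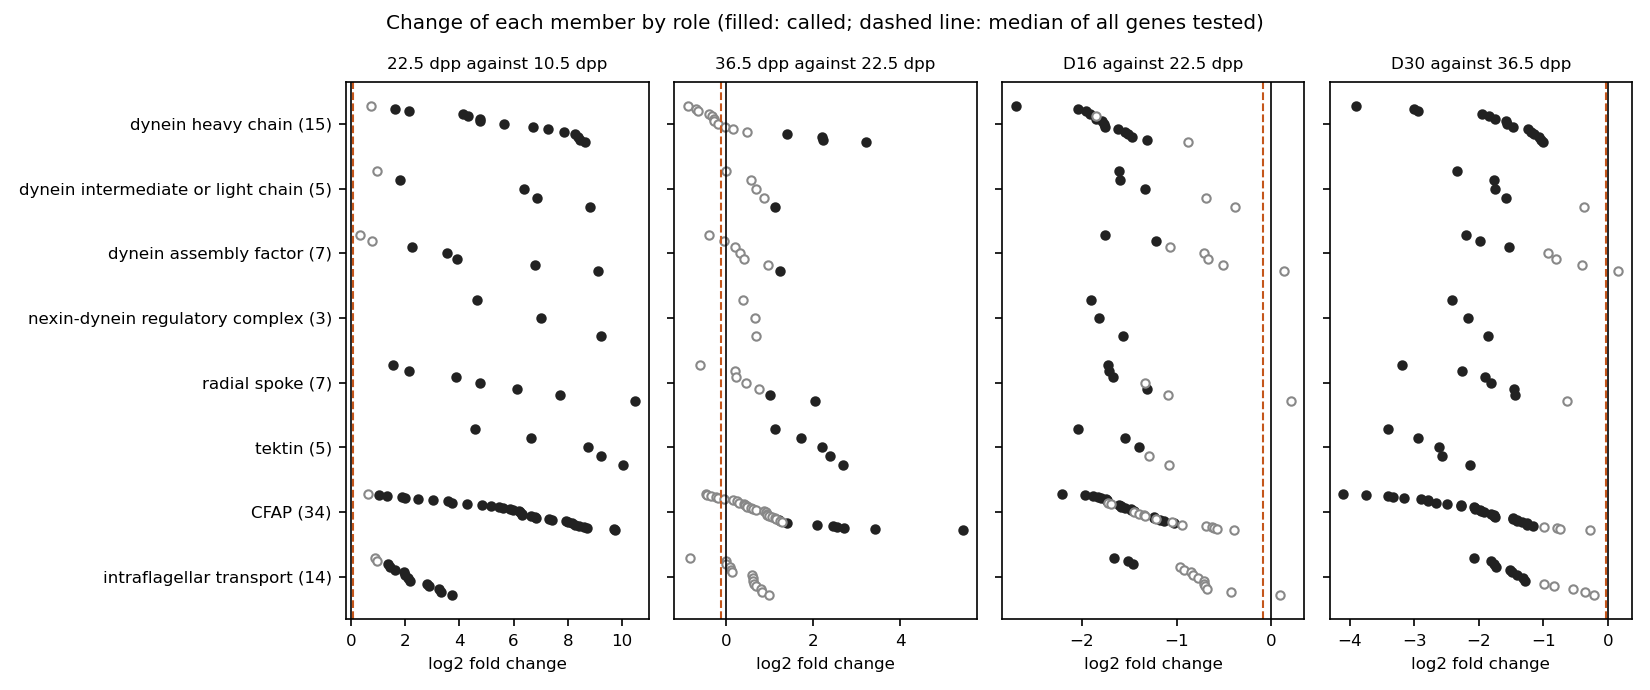
Log2 fold change of each member (horizontal axes) by role (vertical axis) in 4 comparisons, with called members as filled points, the others as open points, and the median of all genes tested as a dashed line. Most members lay right of 0 at 22.5 dpp against 10.5 dpp (83 called higher) and left of 0 at D16 against 22.5 dpp (51 called lower) and at D30 against 36.5 dpp (75 called lower), and the IFT subunits had the lowest median at the first of these steps (2.04).

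Between D16 and D30 no member was called by edgeR or DESeq2. Of all genes tested, 1.41% rose and 0.254% fell, and 5 members had an unadjusted p under 0.05 in edgeR. Tekt5 had the smallest p, with 12.2 and 5.16 CPM at D16 and 32.1, 25.2, 13.1 and 14.8 CPM at D30 (log2 1.33 ± 0.44, edgeR adjusted p = 0.163). Cfap97d1 stood at 2.24 and 0.0219 CPM at D16 and at 7.99, 12.3, 3.85 and 6.25 CPM at D30 (log2 2.79 ± 1.00, edgeR adjusted p = 0.215). In both genes the D30 libraries were above the D16 libraries, as in 6 members in all, while 84 overlapped. Without D16 replicate 1, 8 members were called. The D30 libraries spread widely, from 4755 CPM in fresh replicate 3, the lowest library for 73 members, to 10280 CPM in fresh replicate 1 in the sum of all members.

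At D30, 75 of the 90 members were lower than at 36.5 dpp and none was higher. Of all genes, 29.8% were lower and 25.2% higher. The median log2 difference was -1.76 over the members and -0.03 over all genes, and 29 passed the stricter limits, as did 13.6% of all genes. With library size alone 49 members were lower, while the median of all genes was 0.60, and with DESeq2's size factors 80 were lower, while it was -0.29. The higher share of all genes called was 45.9%, 37.07% and 65.89% by TMM, by these size factors and by library size. Leaving out single libraries gave 60 to 78 members. In 57 members all D30 libraries were below both libraries at 36.5 dpp by CPM, and in 2, Cfap410 and Dnaaf6b, all were above. These counts are given without the share of all genes. In the test by TMM factors Cfap410 had a log2 difference of -0.27 and was not called.

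Tektins were the role with the lowest share of the in vivo level at D30, 25.5% in sum, and all 5 were lower. Tekt5 stood at 32.1, 25.2, 13.1 and 14.8 CPM at D30 and at 147 and 147 CPM at 36.5 dpp (log2 -3.41 ± 0.40, edgeR adjusted p = 1.88e-06). Tekt2 stood at 84.9, 87.4, 35.3 and 67.9 CPM at D30 and at 352 and 337 CPM at 36.5 dpp (log2 -2.95 ± 0.46, edgeR adjusted p = 2.98e-05). No library of D30 came near those at 36.5 dpp in either gene. The summed levels of the other roles at D30 were 35.2% (regulatory complex), 38% (assembly factors), 43.6% (CFAP), 45.5% (intermediate and light chains), 51.3% (spokes), 52.7% (heavy chains) and 60.2% (IFT) of those at 36.5 dpp.

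All 15 heavy chains were lower at D30 than at 36.5 dpp. Dnah9 stood at 2.54, 1.65, 3.00 and 1.96 CPM at D30 and at 8.05 and 15.4 CPM at 36.5 dpp (log2 -3.01 ± 0.28, edgeR adjusted p = 2.14e-07). Cfap77 stood at 3.36, 2.56, 2.64 and 1.93 CPM at D30 and at 14.0 and 21.9 CPM at 36.5 dpp (log2 -3.41 ± 0.36, edgeR adjusted p = 6.80e-07). Both genes were several times lower in each D30 library. The D30 libraries lay below both at 36.5 dpp in 4 of the 15 heavy chains, Dnah3, Dnah5, Dnah9 and Dnah11, and overlapped them by CPM in the other 11. Dnah8 is an example, with 828.7, 588, 316 and 902 CPM at D30 and 820.1 and 1684 CPM at 36.5 dpp (log2 -1.56 ± 0.56, edgeR adjusted p = 0.0207), and it lost its call with library size alone and without 36.5 dpp replicate 2 or D30 fresh replicate 3. With library size alone 26 of the 75 calls were lost, 9 of them of heavy chains, which left 6 of the 15 heavy chains called, 8 of CFAP genes, 5 of IFT subunits, 2 of spoke proteins, and 1 each of assembly factors and light or intermediate chains, while the tektins and the regulatory complex lost none. Of the other roles, 30 of 34 CFAP genes, 4 of 5 intermediate and light chains, 3 of 7 assembly factors, 3 of 3 subunits of the regulatory complex, 6 of 7 spoke proteins and 9 of 14 IFT subunits were lower. The 15 members not called were Ift20, Ift46, Ift52, Ift80 and Ift88, the assembly factors Dnaaf2, Dnaaf5, Dnaaf6 and Dnaaf6b, and Dnal1, Rsph3b, Cfap20, Cfap20dc, Cfap410 and Cfap54. Elongated spermatid markers, whose part was not tested, summed to 459 to 2128 CPM at D30 and 19905 to 25691 CPM at 36.5 dpp, and round spermatid markers to 105 to 262 and 965 to 1092 CPM, with all 6 of each lower in every D30 library. Sertoli cell markers summed to 1009 to 1790 CPM at D30 and 121 to 143 CPM at 36.5 dpp, with 5 of 6 higher in every D30 library. The 5 peritubular and vessel markers summed to 990 to 1564 CPM at D30 and 140 to 240 CPM at 36.5 dpp, and all 5 were higher in every D30 library.

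The step from D4 to D16 was compared with the step from 10.5 to 22.5 dpp as a difference of contrasts. The rise was smaller in culture for 22 members and larger for none, against 4.09% of all genes with a smaller and 4.74% with a larger change. The median difference over the members was -1.41 on the log2 scale. Cfap54 rose by log2 2.52 in culture and 5.88 in vivo (difference log2 -3.37 ± 0.45, edgeR adjusted p = 3.23e-04). Dnah12 rose by 4.51 and 8.36 (difference log2 -3.85 ± 0.63, edgeR adjusted p = 0.00145), and Rsph1 by 4.86 and 7.69 (difference log2 -2.84 ± 0.46, edgeR adjusted p = 0.00130). These 3 genes were also the ones with the smallest p among members called higher at D4 than at 10.5 dpp, a comparison that shares the D4 and 10.5 dpp libraries. Of the 22, 7 were heavy chains and 7 CFAP genes, 2 were intermediate or light chains, 2 were tektins, and the regulatory complex, the spokes, the assembly factors and the IFT subunits had 1 each. The count depended on single libraries, with 6 members without D16 replicate 2, 12 without 22.5 dpp replicate 1, 14 without 22.5 dpp replicate 3 or 10.5 dpp replicate 1 or 3, 34 without 6.5 dpp CSF replicate 3, 38 without 22.5 dpp replicate 2 and 40 without D16 replicate 1. The higher share of all genes called was 53.67% by TMM, 46.09% by DESeq2's size factors and 72.25% by library size, with 27 and 20 members under the latter scalings.

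The step from D16 to D30, set against that from 22.5 to 36.5 dpp, differed for 2 members, both with a smaller change in culture, against 8.26% of all genes with a smaller and 9.11% with a larger change. Cfap77 changed by log2 -0.09 in culture and 2.71 in vivo (difference log2 -2.80 ± 0.53, edgeR adjusted p = 0.00179). Dnah9 changed by 0.81 and 2.20 (difference log2 -1.39 ± 0.43, edgeR adjusted p = 0.0300). Dnah9 lost its call with library size alone and without 22.5 dpp replicate 2, 36.5 dpp replicate 2 or D16 replicate 1, which left 1 member each, while 16 members were called without D16 replicate 2. The scaling moved the median of all genes, at 0.11 by TMM, to -0.05 by DESeq2's size factors and 0.59 by library size, and the higher share of genes called from 52.45% to 38.85% and 81.02%.

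Freezing was compared over 6.5 dpp and D30, the stages with both kinds of tissue. No member was called by edgeR or DESeq2, and of all 19758 genes tested 0% were called, with 2 members at an unadjusted p under 0.05 in edgeR. They were Dnah8 (log2 1.54 ± 0.46, edgeR adjusted p = 0.679) and Rsph4a (log2 -1.58 ± 0.53, edgeR adjusted p = 0.679). Ift20, a short gene, stood at 208.7 CPM in 6.5 dpp CSF replicate 3 and 43.9 to 69.5 CPM in the other libraries at 6.5 dpp. At D30 it stood at 78.0, 177, 71.7 and 220.3 CPM, highest in the CSF library, and it was not called (log2 1.00 ± 0.53, edgeR adjusted p = 0.679). The CSF library at D30 and 6.5 dpp CSF replicate 3 both had long genes lowered relative to short genes (-0.523 and -1.43), and the part of this in the levels of Ift20 was not tested. With 1 fresh library at 6.5 dpp and 1 CSF library at D30 the comparison was small.

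From 10.5 to 22.5 dpp, all 9 further central pair and spoke genes, all 10 of docking and dynein assembly, all 7 of the nexin link, 7 of 8 of the doublet interior, 8 of 9 IFT motor genes and 8 of 9 of the BBSome, a coat of ciliary cargo, rose, where 27.9% of all genes did. Of 12 partners of the IFT trains, 10 rose and 1, Tulp3, fell. At D30, 9, 10, 7, 8, 6 and 2 of the former lists were lower than at 36.5 dpp, in the same order, and of the IFT partners 5 were lower and Tulp3 was higher. Of all genes 29.8% were lower at D30. Hydin, a giant protein of the central pair, stood at 2.31, 1.42 and 3.04 CPM at 10.5 dpp, 206, 133 and 143 CPM at 22.5 dpp and 57.4 and 48.0 CPM at D16 (log2 6.46 ± 0.54, edgeR adjusted p = 1.96e-08 for 22.5 against 10.5 dpp), and it was clearly lower at D16 than at 22.5 dpp in each library. Kif17, an accessory IFT motor, rose late, from 43.3, 15.2 and 45.1 CPM at 22.5 dpp to 263 and 502 CPM at 36.5 dpp (log2 3.95 ± 0.64, edgeR adjusted p = 1.08e-04), and stood at 82.1, 51.9, 28.2 and 29.5 CPM at D30 (log2 -3.62 ± 0.57, edgeR adjusted p = 3.54e-05). Tulp3, which brings membrane receptors into primary cilia with IFT-A, went the other way, with 90.2, 106 and 96.2 CPM at 10.5 dpp, 23.2, 33.5 and 20.1 CPM at 22.5 dpp and 6.45 and 9.08 CPM at 36.5 dpp. It fell at 22.5 dpp (log2 -1.65 ± 0.22, edgeR adjusted p = 4.85e-06) and was higher at D30 than at 36.5 dpp (log2 2.33 ± 0.25, edgeR adjusted p = 9.34e-07), with each of the 4 D30 libraries above both at 36.5 dpp.

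Of 13 regulators of cilium genes, 11 were tested, and 7 of them rose from 10.5 to 22.5 dpp, as did 27.9% of all genes. Rfx2, an activator of spermatid cilium genes, stood at 9.86, 10.5 and 8.82 CPM at 10.5 dpp and 349, 238 and 370.4 CPM at 22.5 dpp (log2 5.35 ± 0.44, edgeR adjusted p = 1.58e-08). It stood at 149 and 82.9 CPM at D16, below each library at 22.5 dpp (log2 -1.62 ± 0.43, edgeR adjusted p = 0.0125). Foxj1, the regulator of motile cilia in many tissues, rose at both steps in vivo, to 42.4, 20.4 and 50.1 CPM at 22.5 dpp (log2 4.58 ± 0.70, edgeR adjusted p = 2.38e-05) and to 116 and 166 CPM at 36.5 dpp (log2 2.39 ± 0.66, edgeR adjusted p = 0.00640). In culture it reached 34.5 and 2.60 CPM at D16 and 33.9, 28.5, 20.6 and 24.8 CPM at D30, and all 4 D30 libraries were below those at 36.5 dpp (log2 -3.02 ± 0.61, edgeR adjusted p = 3.39e-04). Rfx3 (log2 -0.10) and Rfx1 were not called from 10.5 to 22.5 dpp, and both rose from 22.5 to 36.5 dpp (log2 2.26 and 2.51). At D30, 9 of the 11 regulators were lower than at 36.5 dpp and none was higher, where 29.8% of all genes were lower.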

How the data were processed

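Poly(A) RNA was sequenced by the authors with the TruSeq Stranded mRNA kit in single reads of 50 bases, aligned with STAR 2.7.3a to GRCm38 and counted per gene with HTSeq 0.12.4, whose strand setting is not given in the sources used here. The deposited values are raw counts, which are not normalized. The members and gene lists were chosen with earlier results of these data known. The study's methods say that samples failing quality checks were dropped from its own analysis, and here the libraries were kept except where stated. A column identical to another was counted as 1 library. CPM were computed on the library total, so 21 libraries of 28351546 to 69029328 counts set the precision, and the p-values measure the spread between libraries, which the submitters call biological replicates.

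The quasi-likelihood test of edgeR 4.0.16 (R 4.3.3) was fitted to 7 groups, fresh and CSF together, with TMM factors, after the filterByExpr filter, on 19255 genes, with Benjamini-Hochberg adjustment over all of them. Freezing was tested in a fit with stage and freezing apart on 19758 genes. A gene was called at an adjusted p under 0.05 and an absolute log2 change of at least 1, and under the stricter limits at 2 and 0.001. The scripts were tested on simulated counts. Alternatives were the size factors of DESeq2 1.42.0 in edgeR, library size alone, DESeq2 itself, no filter, fresh libraries only, 6.5 dpp fresh replicate 1 in the fit, a replicate block and each library left out. By the rule for named genes every member could be named, and in each comparison up to 3 called members with the smallest p among those whose groups did not overlap were shown. The other members shown per library were taken from the roles with their values known. A planned comparison of member proteins was not run, since no protein sequences were used here.

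Promoters and their coordinates are of RefSeq GRCm38.p6, and exon lengths are from the GRCm38 annotation. For a gene that overlaps another, as 20 members do, reads could come from the other gene.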

Additional observations from a re-analysis of the deposited data

Results flagged for a closer look

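Over 106 values of members and of their sums in groups of 4 libraries, 4 had a library far from the other 3, where chance gives about 1 in 20. At 6.5 dpp, CSF replicate 3 had a summed level of all members of 1384 CPM against 1206 to 1229 CPM in the others. In the same library Ift20 stood at 208.7 CPM against 43.9 to 69.5 CPM. Tekt2 stood at 4.28 CPM in 6.5 dpp CSF replicate 2 and at 4.93 to 5.04 CPM in the others. Dnah11 stood at 1.93 CPM in D30 fresh replicate 1 and at 0.929 to 1.09 CPM in the others.

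The step from D4 to D16 differed from that from 10.5 to 22.5 dpp in 22 members by the test of the difference itself, with log2 differences of -3.37 for Cfap54, -2.84 for Rsph1 and -3.85 for Dnah12. The step from D16 to D30 differed from that from 22.5 to 36.5 dpp in 2 members, with -2.80 for Cfap77 and -1.39 for Dnah9.

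The library labelled 6.5 dpp fresh replicate 1, used in no comparison, had a summed level of the members of 11537 CPM, against 1206 to 1384 CPM in the other libraries at 6.5 dpp.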

How the results depend on the processing

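The counts of called members in all 12 comparisons stayed within 1.5 times without the filter on low counts and with the replicate block. DESeq2's size factors kept 11 of 12 (36.5 against 22.5 dpp moved from 21 to 32 members). DESeq2 itself gave 32 there, 38 in place of 22 for the difference of the steps D4 to D16 and 10.5 to 22.5 dpp, and 4 in place of 2 for that of the later steps. Library size alone gave 49 in place of 75 for D30 against 36.5 dpp and 1 in place of 2 for the later difference. Fresh libraries alone gave 2 in place of 11 for D4 against 6.5 dpp. The stricter limits gave 6 (36.5 against 22.5 dpp), 2 (D4 against 6.5 dpp), 1 (D4 against 10.5 dpp), 0 (D16 against 22.5 dpp), 29 (D30 against 36.5 dpp), 1 (the earlier difference) and 0 (the later difference).

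With 6.5 dpp fresh replicate 1 in the fit, the counts in the same order were 6, 2, 0, 1, 26, 0 and 1, and 13 for D16 against D4. The signs of 7 members then turned at D4 against 6.5 dpp, to log2 -1.25 for Cfap54, -6.09 for Cfap65, -3.46 for Dnah12, -4.37 for Dnah7a, -4.13 for Dnah7c, -3.20 for Dnaic1 and -3.15 for Rsph1.

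Leaving out 1 library at a time gave 0 to 0 members (10.5 against 6.5 dpp), 81 to 83 (22.5 against 10.5 dpp), 14 to 25 (36.5 against 22.5 dpp), 7 to 13 (D4 against 6.5 dpp, 7 without D4 replicate 1), 60 to 76 (D16 against D4), 0 to 8 (D30 against D16, 8 without D16 replicate 1), 1 to 6 (D4 against 10.5 dpp, 1 without 10.5 dpp replicate 1 or 3), 1 to 67 (D16 against 22.5 dpp, 1 without D16 replicate 2), 60 to 78 (D30 against 36.5 dpp), 6 to 40 (the earlier difference, 6 without D16 replicate 2 and 40 without replicate 1), 1 to 16 (the later difference, 16 without D16 replicate 2) and 0 to 0 (freezing). Freezing could not be fitted without 6.5 dpp fresh replicate 2 or the CSF library at D30. The causes were not tested.

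Of 5040 values of 180 named calls under the alternatives, 4697 kept direction and call, 336 kept direction and lost the call, and 7 turned. Counted by call, 125 of the 180 were lost under at least 1 alternative. Whether replicate numbers pair the libraries was not settled. A correlation of deviations over 0.1 was found in 15 of 52 same-numbered pairs (range -0.575 to 0.661) and in 24 of 102 pairs of unlike numbers (range -0.664 to 0.664). Of 19 libraries, 9 correlated best with their own number. In groups of 2 libraries the deviations mirror each other, so such pairs cannot decide it. On the forward strand alone the single RFX site was found in 18.42% of members and 7.772% of all genes. Groups of 2 libraries at 36.5 dpp and D16 limit the precision.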
